A study of Arabidopsis thaliana with 12 samples.

Results

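Plastid ribosomal protein genes are the nuclear genes for the protein subunits of the chloroplast's own ribosome. Members were found by locus: a probe counts if its single annotated gene is AT3G54210 (protein L17), AT4G01310 (L5), AT5G65220 (L29), AT1G29070 (L34) or AT3G13120 (S10). Each of the 5 loci had 1 such probe, out of 692 probes with a single annotated gene and 3439 probes in all. L17, L5, L29 and L34 belong to the large subunit and S10 to the small one, so the small subunit is represented by 1 gene. The study set wild-type Arabidopsis thaliana plants of ecotype Columbia 0 at an age of 4 weeks (6 samples) against plants of the same line at 2 weeks (6 samples), with total RNA measured on expression arrays. No mutation or treatment is labelled in either group. The labels give no organ, growth condition or number of plants, so there is no labelled tissue to check against markers.

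The chloroplast ribosome descends from that of the cyanobacterial ancestor of the organelle and keeps a bacterial type of large and small subunit. It makes the proteins encoded by the plastid genome, among them core subunits of both photosystems and the large subunit of Rubisco. Most of its own proteins are encoded in the nucleus, made in the cytosol and imported, and they are needed in fixed proportion in the assembled particle. In leaves, plastid ribosomes are built mainly while the tissue is young and greening.

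The deposited intensities run from 0 to 100 in each sample. The array median was 0.39 to 0.445 at 4 weeks and 0.0946 to 0.116 at 2 weeks, and 421 to 694 probes of a sample stood at exactly 0. Levels below are quantile-normalized intensities, which give every array the same distribution, with a floor of 0.0152 (-6.04 on the log2 scale). A change is the log2 level at 4 weeks minus that at 2 weeks, tested with limma over 2961 probes and genes, and a gene is called at a Benjamini-Hochberg adjusted p below 0.05. Samples carry numbers 1 to 6 in each age, and samples of adjacent numbers (1 and 2, 3 and 4, 5 and 6) tended to resemble each other, so each age may hold as few as 3 independent units. As in any bulk RNA sample, fewer cells of a type and less RNA per cell cannot be told apart here.

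The 5 genes did not move as one group. At 4 weeks against 2 weeks, L17 fell 2.79-fold and L5 fell 2.16-fold, L29 rose 1.45-fold, and L34 and the small subunit's S10 did not pass the test. The direction of L5 flips in the deposited values and that of L29 with median centring. Thus 3 of the 5 were called, where 64.6% of all tested probes and genes were called, 33.6% higher and 31.1% lower. The members' share is near that background. Their median change of 0.09, which is the value of S10 and moves with its 1 sample at the floor, and their mean of -0.34 lay beside a median of 0.10 over all tested. The members' median was 1.41 against 1.82 over all tested in the deposited values and -0.29 against 0.14 with median centring, below that of all tested on both of these scales. The ages did not overlap for 1 of the 5, L5, where 47.7% of all tested had no overlap. All 5 passed the filter on low values, L17, L5 and L29 with all 12 arrays above the floor, S10 with 11 and L34 with 9.

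**Figure D1:**
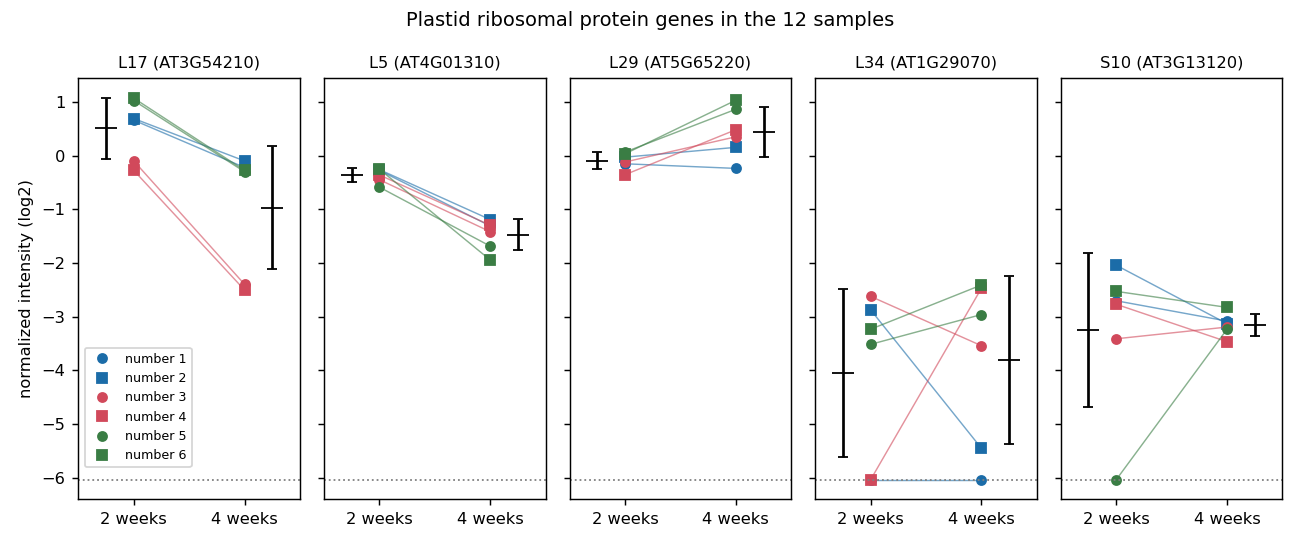
Normalized intensity (log2, vertical axis) of the 5 genes at 2 and 4 weeks, 1 panel per gene. Points are samples, lines join samples of the same number, colours mark adjacent numbers, bars show the mean ± SD of 6 samples, and the dotted line is the floor of -6.04; levels of different probes are not comparable. L17 was lower at 4 weeks for 6 of 6 numbers, with numbers 3 and 4 lowest in both ages, and L34 reached the floor in 3 samples and S10 in 1.

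In bacteria, L17 is a large-subunit protein close to the tunnel through which the new chain leaves the ribosome. The normalized intensity of AT3G54210, its plastid counterpart, ranged from 0.826 to 2.10 at 2 weeks with a median of 1.60, and from 0.176 to 0.934 at 4 weeks with a median of 0.819. The means were 1.52 ± 0.538 and 0.633 ± 0.351 (SD, n = 6). The highest 4-week sample, number 2 at 0.934, lay above the lowest 2-week sample, number 4 at 0.826, so the ages overlapped. Within each number L17 was lower at 4 weeks, with log2 differences from -2.30 (number 3) to -0.79 (number 2). The fitted change was -1.48 (SE 0.49, limma adjusted p = 0.0181).

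The overlap lay in 2-week samples 3 and 4, and samples 3 and 4 stood far below the others in both ages. Their mean log2 level less that of the other 4 samples was -2.23 at 4 weeks and -1.05 at 2 weeks. Of the spread of L17 within an age, 99.6% lay between the 3 pairs of adjacent numbers, against a median of 68.9% over all tested, and adjacent samples differed by a median of 0.08 on the log2 scale. Without numbers 3 and 4 of both ages the fall of L17 was -1.09 (SE 0.14, limma adjusted p = 3.75e-04). With adjacent numbers averaged, 3 against 3, it did not pass (SE 0.68, adjusted p = 0.115), where 50.9% of all tested were called.

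L5 holds 5S ribosomal RNA in the bacterial large subunit. AT4G01310, the plastid L5 gene, had a normalized intensity between 0.666 and 0.840 at 2 weeks, with a median of 0.804, and between 0.260 and 0.438 at 4 weeks, with a median of 0.389. Every 4-week sample lay below every 2-week sample. The means were 0.780 ± 0.0695 at 2 weeks and 0.366 ± 0.0673 at 4 weeks (SD, n = 6), a change of -1.11 (SE 0.14, limma adjusted p = 1.85e-05). The 6 differences within a number ran from -1.69 (number 6) to -0.93 (number 2). L5 was also the steadiest member, with a within-age SD of 0.22 on the log2 scale against a median of 0.38 over all tested. It was called with adjacent numbers averaged, at a limma adjusted p of 0.00570.

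L29 sits beside the exit of the tunnel in bacterial ribosomes. AT5G65220 went the opposite way from L17 and L5, from a normalized intensity of 0.943 ± 0.0970 at 2 weeks to 1.42 ± 0.447 at 4 weeks (SD, n = 6). At 2 weeks it lay between 0.782 and 1.05 with a median of 0.951, and at 4 weeks between 0.849 and 2.05 with a median of 1.34. Of the 4-week samples only number 1, at 0.849, lay within the 2-week range, and the rest were above it. The change was 0.53 (SE 0.20, limma adjusted p = 0.0319), positive for 5 of 6 numbers. At 4 weeks the adjacent pairs stood apart, at mean log2 levels of -0.04 for numbers 1 and 2, 0.42 for 3 and 4 and 0.95 for 5 and 6. The call was lost with adjacent numbers averaged (limma adjusted p = 0.159) and, in the fit that took adjacent numbers within an age as a random effect, the adjusted p was 0.0670, where 53.1% of all tested were called. It was also lost when number 3, 4, 5 or 6 was left out, with limma adjusted p-values of 0.0694, 0.0997, 0.0749 and 0.0735.

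L34, a small basic protein of the large subunit, gave the noisiest values. AT1G29070 was at the floor in 4-week sample 1 and in 2-week samples 1 and 4, each of which is deposited as 0. Its normalized intensity reached 0.188 at 4 weeks, with a median of 0.107, and 0.162 at 2 weeks, with a median of 0.0967, and the ranges overlapped. The within-age SD was 1.57 on the log2 scale, and 2.60% of all tested had a larger one. The change of 0.24 (SE 0.83, limma adjusted p = 0.813) had a 95% interval from -1.57 to 2.05, so a fall as large as that of L17 or L5 lies within it. With the values at the floor taken as missing the change was -0.31 (SE 0.57).

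S10 lies in the head of the bacterial small subunit. AT3G13120 had a normalized intensity between 0.0904 and 0.141 at 4 weeks, with a median of 0.112. At 2 weeks it ran from the floor, in sample 5 alone, to 0.243, with a median of 0.150. The means were 0.113 ± 0.0166 and 0.138 ± 0.0769 (SD, n = 6), and the 4-week samples lay inside the 2-week range. The change of 0.09 (SE 0.55, limma adjusted p = 0.889) had a 95% interval from -1.10 to 1.29. Without 2-week sample 5, which is deposited as 0, the change was -0.47 (SE 0.22, limma adjusted p = 0.0802).

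The scaling of the arrays shifted the value of every member. In the deposited intensities, without normalization, the median change over all tested was 1.82, with 75.7% called higher and 11.0% lower, so a gene that changes little there falls relative to the array. On that scale L17 changed by -0.61 (limma adjusted p = 0.275), L5 by 0.19 (adjusted p = 0.248), L29 by 1.41 (adjusted p = 1.73e-05), L34 by 2.23 (adjusted p = 0.0564) and S10 by 2.38 (adjusted p = 0.00166). In those fits 2 members were called higher and 0 lower. With arrays centred on their medians, where 33.0% of all tested were called higher and 31.1% lower, 2 members were called lower and 0 higher. L17 then fell by 2.31 and L5 fell by 1.51, while L29 stood at -0.29 (limma adjusted p = 0.230).

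Taken relative to the median of all tested, L17 and L5 lay below it under each of the 3 scalings. L17 lay at -1.58 after quantile normalization, -2.43 in the deposited values and -2.45 with median centring, and L5 at -1.21, -1.63 and -1.65. L29 was above the median of all tested after quantile normalization, at 0.44, and below it in the other two, at -0.41 and -0.43. S10 stood at 0.00, 0.56 and 0.61, and L34 at 0.14, 0.41 and 0.76. The direction of L29 therefore flips with the scaling, whereas L17 and L5 kept theirs relative to the array.

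**Figure D2:**
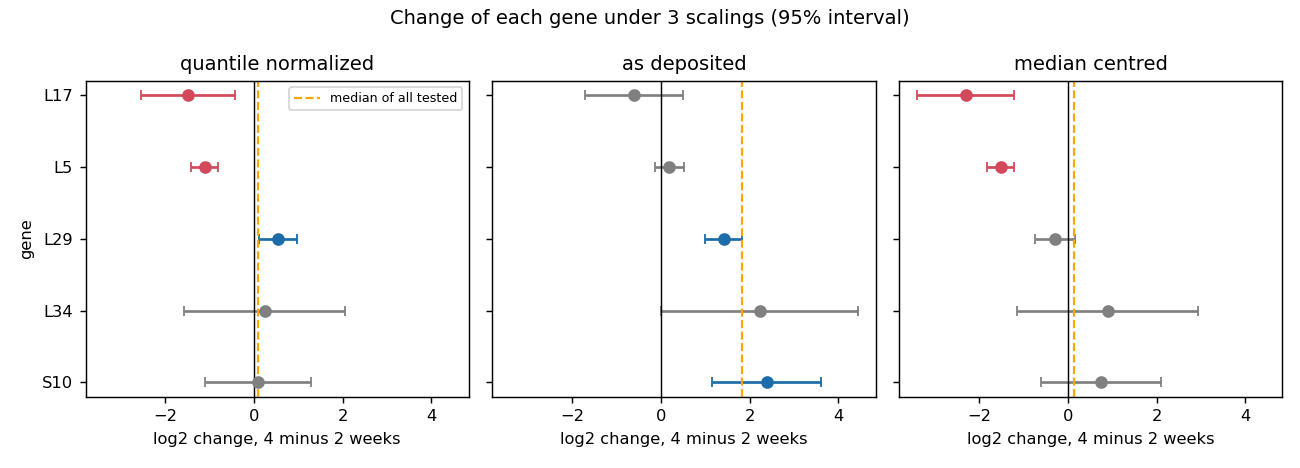
Log2 change at 4 minus 2 weeks (horizontal axis) of each gene under quantile normalization, in the deposited values and with median centring. Points are limma estimates with 95% intervals, red for called lower, blue for called higher and grey for not called, and the dashed line is the median of all tested (0.10, 1.82 and 0.14). L17 and L5 lie left of the dashed line in all 3 panels.

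Whether members changed unequally was asked within each sample, by the difference in log2 level of 2 genes, which in deposited values above the floor does not depend on a factor common to an array. Of the 10 pairs of members, 3 changed unequally between the ages, in an exact two-sided permutation test over samples (n = 6 a group). The threshold was a Benjamini-Hochberg adjusted p below 0.05 over the 10 pairs. Pairs of other genes were not tested in this way. With 33.6% of all tested called higher and 31.1% lower, unequal changes are not shown to be particular to these genes. The change of L17 less that of L29 was -2.01 (SE 0.54), and that of L5 less that of L29 was -1.65 (SE 0.31). Both had an exact p of 0.00216, the smallest that 6 against 6 can give, and an adjusted p of 0.0108.

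At 4 weeks the level of L17 less that of L29 lay between -2.99 and 0.02 in log2, with a median of -1.24. At 2 weeks it lay between 0.02 and 1.04, with a median of 0.77, so the ages met at 0.02 without overlap. The 4-week values of L5 less L29 lay between -2.98 and -1.07, all below the 2-week values, which lay between -0.65 and 0.00. In the deposited values the same differences in change were -2.02 (SE 0.50) and -1.22 (SE 0.30), with exact adjusted p-values of 0.00722 and 0.0108. Each was negative for 6 of 6 numbers. Within the large subunit, L17 and L5 thus each differed from L29 in their change under both scalings, if the 6 samples of an age are taken as independent.

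Against the small subunit's S10, the changes of the 4 large-subunit genes were -1.57 (SE 0.80) for L17, -1.21 (SE 0.57) for L5, 0.44 (SE 0.64) for L29 and 0.15 (SE 1.14) for L34. After quantile normalization only the difference of L5 passed, with an exact adjusted p of 0.0289, and it lost its call without number 1, 3, 4, 5 or 6. Without number 5, whose 2-week sample had S10 at the floor, it was -0.66 (exact adjusted p = 0.0794), L17 less S10 was -1.06, and L29 less S10 was 0.93 (SE 0.29, exact adjusted p = 0.0794). The sign of L34 less S10 turned with the samples, from -0.68 without number 4 to 0.63 without number 5. In the deposited values the changes of L17 and L5 less that of S10 were -2.99 (SE 0.83) and -2.19 (SE 0.55), each with an exact adjusted p of 0.00722. L29 and L34 were not shown to differ from S10 on either scale, nor was L17 from L5, at -0.37 (SE 0.57, exact adjusted p = 0.706). After quantile normalization the 4 large-subunit genes lay on both sides of S10. In the deposited values all 4 lay below it, with L29 at -0.97 (SE 0.67, exact adjusted p = 0.186) and L34 at -0.15 (SE 1.32, exact adjusted p = 0.911) less S10.

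**Figure D3:**
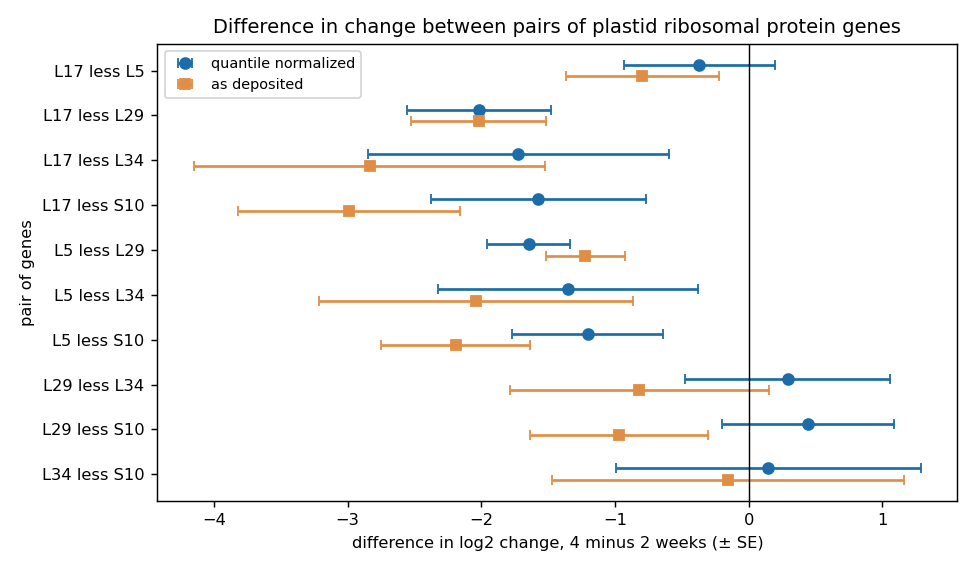
Difference between 2 genes in log2 change from 2 to 4 weeks (horizontal axis, ± SE, n = 6 a group) for the 10 pairs of members. Circles are quantile-normalized and squares deposited values. L17 less L29 stands at -2.01 and -2.02 and L5 less L29 at -1.65 and -1.22.

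When same-numbered samples were paired (replicate block, exact sign permutation of 6 differences, smallest possible p 0.0312), 0 of the 10 pairs passed, with an adjusted p of 0.156 for L17 less L29 and L5 less L29, whose differences were the same size, -2.01 (SE 0.38) and -1.65 (SE 0.26). With adjacent numbers averaged, 3 against 3 can give no p below 0.1, and 0 passed. These differences kept their size there, with larger SEs of 0.85 for L17 less L29 and 0.47 for L5 less L29. Without numbers 3 and 4 the differences were -1.56 for L17 less L29 and -1.66 for L5 less L29, with 4 samples an age, a smallest possible p of 0.0286 and 0 pairs passing. In these 3 settings the smallest possible p kept a few pairs from passing the adjustment over 10, so the counts of 0 do not bear on the differences.

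Coordination between members from sample to sample was described within each age. Of 20 correlations (10 pairs, each age apart, n = 6), 0 passed at a Benjamini-Hochberg adjusted exact permutation p below 0.05, and 4 had an unadjusted p below it. These counts are for r. For rho the smallest p that 6 samples can give is 0.00278, so no pair could pass the adjustment over 20 by itself. For r a smaller p is possible and a single pair could pass, but the lowest adjusted p was 0.0833. With 6 samples an age, the count of 0 does not show that coordination is absent. Samples of adjacent numbers may not be independent, so these values describe the samples only. L5 and S10 at 2 weeks gave r = 0.94 and rho = 0.94 (exact p = 0.00417, adjusted p = 0.0833), with both genes lowest in sample 5. Without the 2 samples farthest from the median of L5, r was 0.58, and at 4 weeks r was -0.59.

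L29 and L34 moved together at 4 weeks, with r = 0.88 and rho = 0.94 (exact p = 0.0222, adjusted p = 0.148), and r = 0.72 without the 2 farthest samples. In 4-week samples 1 and 2, where L29 was lowest, L34 was at the floor and near it, at a normalized intensity of 0.0228. Leaving out the 2 farthest samples, taken by L29, drops sample 1 but keeps sample 2. At 2 weeks the same pair gave r = 0.72 and rho = 0.41, with L34 at the floor in samples 1 and 4. The likeness of L29 and L34 thus leans on values at or near the floor. L17 and L29 were alike at 2 weeks, with r = 0.86 and rho = 0.89 (exact p = 0.0125, adjusted p = 0.125) and r = 0.85 without the 2 farthest samples. For this pair r was -1.18e-05 at 4 weeks, and rho was -0.43 (exact permutation p = 0.419). L5 and L29 ran opposite at 4 weeks, with r = -0.84 and rho = -0.71 (exact p = 0.0389, adjusted p = 0.194), and r = -0.20 without the 2 farthest. No pair of members was among these 4 in both ages.

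The genes most like each member over the 12 samples were taken from 451 other named genes above the floor on all arrays, by Pearson's r of normalized log2 level, as a description. For L17 they were HEMA3 (r = 0.96), of the glutamyl-tRNA reductase family that opens chlorophyll and heme synthesis, PSBY (r = 0.96), a small photosystem II protein, and AT2G44760 (r = 0.93). With the age means removed r was 0.96, 0.98 and 0.93, and all 3 genes, like L17, were lowest in samples 3 and 4 of both ages. In 4-week samples 3 and 4, HEMA3 stood at a normalized intensity of 0.250 and 0.229 against 0.535 to 0.727 in the other 4, and PSBY at 0.123 and 0.153 against 0.876 to 1.11. Samples 3 and 4 lay below the other 4 in both ages for 116 of the 2961 tested (3.92%), among them 21 of 593 named genes, of which L17 was the 1 member. What sets samples 3 and 4 apart is not given by the labels and was not tested.

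**Figure D4:**
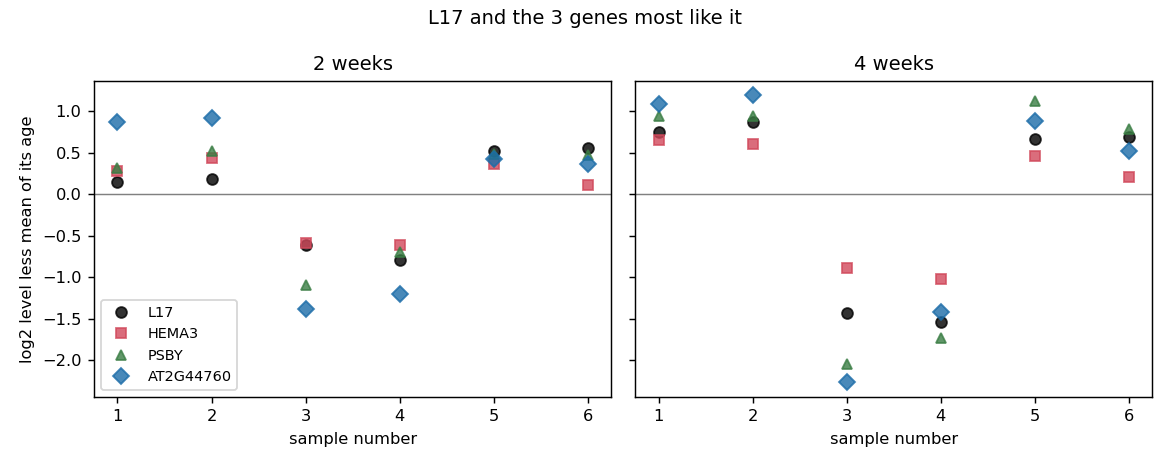
Log2 level less the mean of its age (vertical axis) by sample number (horizontal axis) for L17 and the 3 named genes most like it, at 2 and 4 weeks. All 4 genes lie below 0 in samples 3 and 4 of both ages and above 0 in the other samples.

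L5 was most like RAP74 (r = 0.97), a subunit of the general transcription factor TFIIF, AT4G27700 (r = 0.97) and AT4G30680 (r = 0.97), whose log2 changes were -1.70, -1.44 and -1.89. Part of that likeness is the shared difference between the ages, since r within ages was 0.76, 0.78 and 0.68. In the deposited values r was -0.28 with RAP74, 0.59 with AT4G27700 and 0.77 with AT4G30680, so the likeness to RAP74 rests on the normalization. L29 was most like AT2G28390 (r = 0.94), AT3G54550 (r = 0.93) and AT3G04500 (r = 0.90), with r of 0.89, 0.87 and 0.83 within ages and 0.97, 0.97 and 0.96 in the deposited values. The best r for L34 was 0.69, with AT5G66530, followed by 0.65 with AT2G37420 and 0.57 with AT2G28390. For S10 it was 0.74 with AT5G43770, 0.73 with AT5G40070 and 0.72 with AT5G34870. Within ages r was 0.74, 0.86 and 0.81, and in the deposited values 0.90, 0.94 and 0.93. All 3 of these genes were lowest in 2-week sample 5, the 1 sample where S10 stood at the floor. The r without that sample was not computed.

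Of 78 further loci on lists of plastid gene expression (other ribosomal proteins, translation factors, ribosome assembly and transcription), 3 had a single-gene probe and 2 were tested. Of these, 0 were called higher and 1 lower, where 33.6% of all tested were called higher and 31.1% lower. ILA, on the translation factor list, is a homologue of yeast GCN1, which acts in translational control in the cytosol. It had a normalized intensity between 1.16 and 1.45 at 2 weeks and between 0.125 and 0.318 at 4 weeks, with no overlap. It fell 6.10-fold, a change of -2.61 (SE 0.21, limma adjusted p = 3.36e-07), against -1.53 in the deposited values and -3.23 with median centring. At 4 weeks ILA was lowest in samples 3 and 4, at 0.125 and 0.163 against 0.213 to 0.318, but at 2 weeks sample 3, at 1.31, was among the higher ones and only sample 4, at 1.16, was low. AT5G14910, from the ribosome assembly list, had a change of 0.25 (SE 0.23, limma adjusted p = 0.351), and 1.35 in the deposited values. AT1G64510, from the list of other plastid ribosomal proteins, is listed at 0 in all 12 samples and was not tested.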

How the data were processed

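Intensities for 3439 probes in 12 samples were used as deposited; the sources used here do not give the authors' scanner, background correction or scaling. Probes were named through the platform annotation, 692 with a single gene, of which 690 matched RefSeq genes (assembly TAIR10.1). Array medians of positive log2 values spanned 1.90, so quantile normalization was applied, with the 1st percentile of the positive values as a floor, before log2 was taken. Probes above this floor on at least 6 arrays were tested, 2961 features in all, on the quantile-normalized log2 values. The test was limma 3.58.1 (R 4.3.3, lmFit, eBayes, two-sided, Benjamini-Hochberg). Within-sample differences between members and within-age correlations used exact permutation tests. The limma step was tested on simulated data. Members, lists and tests were chosen with earlier results of these data known. Named genes are the 5 members, the tested genes of the lists, and the 3 named genes most like each member. No sequence of these genes was used here. The number of arrays limits the precision, and p-values measure only the spread between samples, which may be technical.

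Deviations from the age means were correlated across genes between same-numbered samples of both ages, giving r between 0.16 and 0.44. All 6 exceed 0.1, so the numbers pair the samples by the rule applied here; no label explains the numbering. The main tests are unpaired, and the fit with the number as a block is an alternative. Adjacent numbers of the same age gave r between 0.41 and 0.50 (4 weeks) and between 0.01 and 0.31 (2 weeks), and all other pairs of one age r between -0.47 and -0.22. Alternatives were the scaling, the floor, the filter, the variance model, the block, adjacent numbers averaged or as a random effect, and leaving out samples.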

Additional observations from a re-analysis of the deposited data

Results flagged for a closer look

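Dixon's outlier test was applied to each age of the 5 members and the tested list genes, 14 groups of 6 samples, and singled out 1; about 1 group in 20 is singled out by chance. AT3G13120, for S10, was lowest in 2-week sample 5, at -6.04 in normalized log2 intensity, with the next sample at -3.41. The low value is the floor, and the deposited value is 0.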

How the results depend on the processing

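L17 kept its fall in all alternatives, but lost its call in the deposited values (-0.61) and with adjacent numbers averaged (-1.48, SE 0.68). L5 was called lower in every alternative except the deposited values, where it stood at 0.19. L29 turned to -0.29 under median centring. It was no longer called after averaging adjacent numbers (0.53, SE 0.28), with them as a random effect within an age (0.53, SE 0.23), or without numbers 3 and 4 (0.47); leaving out each number in turn gave 0.44 to 0.66. S10 was called only in the deposited values, at 2.38. L34 was called in no alternative. With the replicate number as a block, 3 of the 5 members were called, as without it, and the SE of L17 was 0.24. The share of all tested called under the block was not taken, so this count has no background beside it. The replicate block changed no limma call of a member or list gene. Pairs of members with different changes numbered 0 under the block, with adjacent numbers averaged and without numbers 3 and 4, against 3 in the main setting. The smallest exact p of these designs (0.0312, 0.1 and 0.0286) left no room for 3 pairs to pass over 10. The count of members called was 1 with adjacent numbers averaged, where 50.9% of all tested were called. Of the 2 tested list genes, 2 were called in the deposited values, where 75.7% of all tested were called higher and 11.0% lower. With the dimmest 25% left out, L34 and S10 were not tested. Treating values at the floor as missing, the random effect within an age and leaving out 2-week sample 5 were added after the data were seen. The cause of these shifts was not tested. Signal near the floor limits L34 and S10.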
